A study of Mus musculus with 4 samples.

Results

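Krt6a, Krt6b, Krt16 and Krt17 are the keratin genes often grouped as activation keratins, and they were followed here by their rows in single-cell count tables of the mouse vaginal epithelium. The members are 4 of the 25071 gene symbols in the tables and 4 of 44 keratin genes with a numbered symbol. The tables come from Drop-seq, which captures single cells in droplets and counts transcripts near their 3′ end by unique molecular identifiers (UMIs). There were 2 libraries from wild-type, ovary-intact mice (named WT) and 2 from surgically ovariectomised mice (OVX) of the C57BL/6 strain; surgery is the one treatment named. Each library pooled 5 mice. The submitters write of pooled mice run in duplicate, which leaves unknown whether the 2 libraries of a group hold different mice, and p-values between groups therefore rest on a spread between libraries that may be technical. The sources used here do not give the ages of the mice, the time after surgery or the oestrous stage of the intact mice.

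Keratins form the intermediate filaments of epithelial cells, and each filament is built from a type I chain paired with a type II chain. Krt6a and Krt6b encode type II chains, and Krt16 and Krt17 encode type I chains that pair with them. In skin these 4 are known for low levels in the resting epidermis between hair follicles and for a rapid rise after wounding and in hyperproliferative disease, and some of them are made constantly in hair follicles, nails and oral mucosa. Krt17 is also known in basal cells of several glands. The vaginal epithelium is a stratified epithelium whose basal cells carry Krt5 and Krt14, and which thickens and cornifies under oestrogen and thins when oestrogen is lost.

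The type II pair lies side by side on chromosome 15 and the type I pair on chromosome 11 (GENCODE vM21 annotation of GRCm38; the submitters' processing notes name mm10). Krt6a spans chr15:101689910-101694307 on the minus strand in 9 exons, and Krt6b spans chr15:101676023-101680287 on the same strand in 9 exons, 9.6 kb from Krt6a. Krt16 spans chr11:100246091-100248902 and Krt17 spans chr11:100256217-100261029, both on the minus strand in 8 exons and 7.3 kb apart. The last 36 coding bases of the 2 type II genes, stop codon included, are shown because the genes are near copies and a count for one could hold reads of the other; the 4 bases that differ are in capitals.
Krt6a: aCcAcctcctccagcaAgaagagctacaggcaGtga
Krt6b: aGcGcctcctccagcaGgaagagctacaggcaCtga
The first lies at chr15:101690467-101690502 and the second at chr15:101676529-101676564. Over the whole coding sequence Krt6a and Krt6b were 97.6% identical, but over the last 500 bases of the transcripts, where 3′ counting reads fall, they were 68.9% identical and shared no word of 50 bases. For the type I genes the ends hold common stretches. Of the 50-base words in the last 500 bases of Krt16, 16.9% occur in another gene (Krt14, Krt17 or Gm11597). Of those of Krt17, 9.53% do (Krt14 or Krt16). Krt17 and Krt14 share a coding stretch of 71 bases, 312 bases before the end of the Krt17 transcript. The stretch printed next holds only a part of these shared words. The stretch of 55 coding bases that Krt16 shares with both Krt14 and Krt17, at chr11:100246625-100246679 and 300 bases before the end of the Krt16 transcript, reads as follows.
Krt16, Krt14 and Krt17: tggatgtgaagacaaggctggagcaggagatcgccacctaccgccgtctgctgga
Reads that lie wholly in a shared stretch cannot be assigned to one of these genes, and the sources used here do not say how the authors' counting treated them.

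Of 10000 cell barcodes, 8446 were kept for having 200 or more genes seen and no more than 20% of UMIs from mitochondria. Between 1573 and 2979 cells per library were kept, with 798916 to 5830417 UMIs per library and 435 to 1597 median UMIs per cell. OVX library 1 was the shallowest and WT library 1 the deepest. Median mitochondrial shares were 3.85% to 4.00% in WT and 8.97% to 9.69% in OVX, and the nuclear RNA Malat1 took 0.336% to 0.465% of UMIs in WT and 1.81% to 2.50% in OVX. Pairs of libraries shared 2 to 15 barcodes. The basal epithelial keratins Krt14 (16653 and 17564 UMIs per 1000000 UMIs of the library, or CPM, in WT and 2206 and 2262 CPM in OVX) and Krt5 were counted in every library.

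Krt6a, Krt6b and Krt16 were abundant in the libraries of intact mice and nearly absent from those of ovariectomised mice, whereas Krt17 was counted in all 4 libraries. Krt6a stood at 2769.6 and 2219 CPM in WT libraries 1 and 2 and at 67.6 and 50.1 CPM in OVX libraries 1 and 2. Its means were 2494 ± 390 and 58.8 ± 12.4 CPM (SD, n = 2 libraries per group), a 47.0-fold difference with a log2 change of -5.56 ± 0.51 (SE, edgeR; adjusted p = 0.00365). Krt6b, its neighbour, stood at 1337 and 1328 CPM in the WT libraries, the closest replicate agreement of the 4 genes, and had no UMI in OVX library 1 and 1 UMI (0.611 CPM) in OVX library 2. With 10356 UMIs in WT and 1 in OVX, the ratio of pooled Krt6b CPM was 3250, with a 95% counting interval of 583 to 128399 (edgeR adjusted p = 0.00263). The 0 UMIs of Krt6b in OVX library 1 allow up to 3.76 CPM.

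Among the type I partners, Krt16 stood at 3516 CPM in WT library 1 and 1059 CPM in WT library 2, so its replicates differed more than those of the other 3 genes. In the OVX libraries Krt16 stood at 6.26 and 6.11 CPM, from 5 and 10 UMIs. Both WT libraries lay far above both OVX libraries, at means of 2287 ± 1737 and 6.18 ± 0.106 CPM, a 403-fold difference with a log2 change of -8.65 ± 0.85 (SE, edgeR; adjusted p = 0.00368). The change of Krt16 was -7.49 without WT library 1 and -9.33 without WT library 2. The basal keratin Krt5 also differed between the WT libraries, at 21650.4 and 5897 CPM. Krt17 went the other way in its means, with 273 and 354 CPM in WT and 697 and 462 CPM in OVX. The Krt17 difference (314 ± 57.6 against 580 ± 166 CPM; log2 fold change 0.74 ± 0.42, SE) did not pass the test (edgeR adjusted p = 0.373), although its groups did not overlap. Non-overlap between 2 and 2 libraries was common, at 50.3% of the 11495 genes tested.

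Thus 3 of the 4 genes were called lower and none was called higher at an adjusted p under 0.05, where 2.52% of all genes tested were called lower and 2.58% higher. Krt6b entered the test through its WT counts, since its OVX counts were near 0, and the OVX values of Krt16 rest on 15 UMIs. The calls on the 4 genes were kept with each library left out in turn and under the other settings tried.

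**Figure D1:**
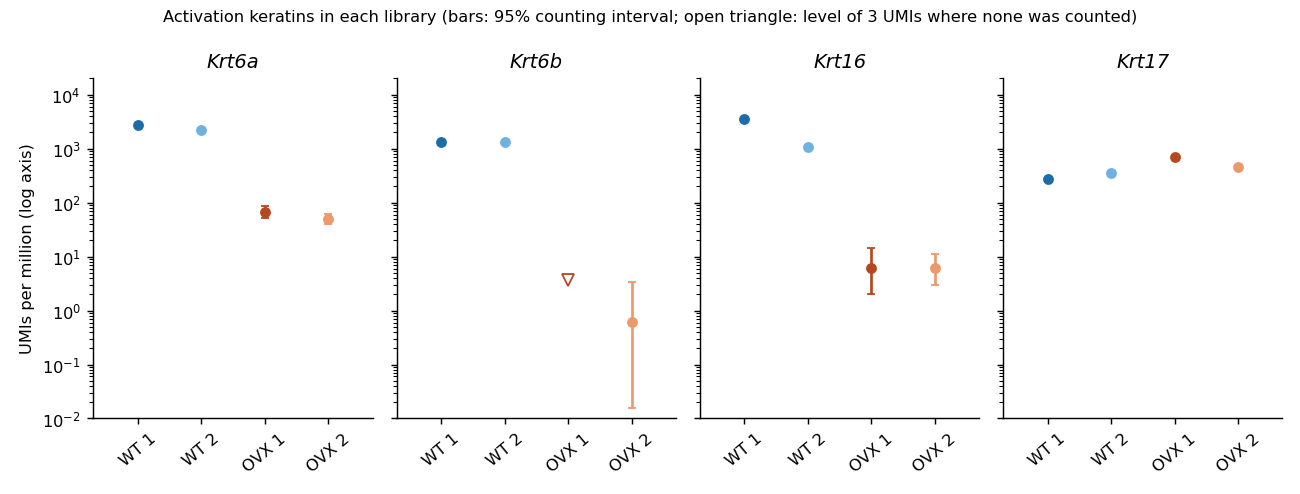
CPM of Krt6a, Krt6b, Krt16 and Krt17 (log axis) in WT libraries 1 and 2 and OVX libraries 1 and 2. Points are single libraries and bars their 95% Poisson counting intervals; the open triangle marks the level of 3 UMIs where none was counted. Krt6a, Krt6b and Krt16 sit at 1059 or more in both WT libraries and at 67.6 or less in both OVX libraries, while Krt17 lies between 273 and 697 in all 4.

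The share of cells in which a gene is seen depends on depth, so each cell with at least 400 UMIs was thinned to 400 at random; 7710 cells remained, and 650 of the kept cells of OVX library 1, 43 of WT library 2, 43 of OVX library 2 and 0 of WT library 1 were too shallow. Krt6a was seen in 44.8% and 42.6% of thinned cells in the WT libraries and in 2.06% and 1.56% in the OVX libraries. Krt6b was seen in 14.9% and 16.4% of WT cells and in none of 923 and 1864 OVX cells, which allows shares of up to 0.325% and 0.161%. Krt16 was seen in 25.2% and 16.9% of WT cells and in 0.433% and 0.161% of OVX cells. For these 3 genes both WT libraries thus lay above both OVX libraries in the share of cells as in the counts. In the counts 50.3% of all genes tested did not overlap between groups. For thinned shares that figure was not computed. Krt17 was seen in 7.08% and 9.83% of WT cells and in 19.4% and 14.2% of OVX cells. Before thinning, Krt17 shares were nearly level, at 22.1% and 19.1% in WT and 21.7% and 23.0% in OVX, with the OVX cells shallower.

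In differences of means, the thinned share of Krt6a was lower in OVX by 41.9 percentage points (43.7% ± 1.53 against 1.81% ± 0.355, SD, n = 2). The share of Krt16 was 21.0% ± 5.90 in WT and 0.297% ± 0.193 in OVX, and that of Krt17 was 8.45% ± 1.94 and 16.8% ± 3.66. With 2 libraries per group a two-sided exact permutation test cannot give a p below 0.3333, and all 4 genes gave that value. For unthinned Krt17 the same exact permutation test gave p = 0.667.

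The UMIs of these genes were concentrated in a minority of the WT cells, less so for Krt6a. The tenth of cells richest in the gene held 52.1% and 51.7% of Krt6a UMIs in WT libraries 1 and 2, but 88.1% and 86.9% of Krt6b UMIs and 84.2% and 81.3% of Krt16 UMIs. For Krt17 that share was 77.4% and 73.5% in WT and 67.0% and 67.4% in OVX. A single WT cell held up to 135 UMIs of Krt6a, 143 of Krt6b and 277 of Krt16, all in WT library 1, which was also the deepest. No OVX cell held more than 6 UMIs of Krt6a, 1 of Krt6b or 2 of Krt16. Krt17 reached 28 UMIs in a WT cell and 12 in an OVX cell.

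Cells were then placed by other markers, none of them a member. Basal-gated cells had at least 2 UMIs of 12 basal genes (Krt5, Krt14, Krt15, Trp63 and integrin and laminin genes among them) and at most 1 of 15 suprabasal genes (Krt1, Krt10, Krt4, Krt13, Krtdap, Dsg1a, Dsg1b and Spink5 among them) in their 400 thinned UMIs. Suprabasal-gated cells had at least 3 suprabasal UMIs and more of them than basal ones, and mixed cells had at least 2 of each without meeting that condition. The basal gate held 1053 and 665 cells in the WT libraries and 520 and 1135 in the OVX libraries, the mixed gate 1726 and 1057 against 100 and 125, and the suprabasal gate 189 and 203 against 139 and 328. The gates cut a continuous range: 52.0% and 53.5% of basal-gated WT cells had 1 suprabasal UMI, against 15.2% and 15.9% in OVX.

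The suprabasal gate did not hold the same kind of cell in both groups. In OVX libraries 91.5% and 94.2% of its suprabasal-list UMIs were of Spink5, which encodes a protease inhibitor, against 23.3% and 11.2% in WT. Krt10, a keratin of suprabasal keratinocytes, stood at 11331 and 9087 CPM in the WT gate and at 226 and 73.3 CPM in the OVX gate. Without Spink5 in the list the gate kept 112 and 148 WT cells but 3 and 13 OVX cells. The OVX cells of this gate are therefore called Spink5-led cells below, and the 2 groups are compared in this gate only with that difference stated.

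Within the basal gate, Krt6a, Krt6b and Krt16 were again far lower in OVX and Krt17 was not called. Basal-gated Krt6a stood at 1156 and 986 CPM in WT and 19.0 and 6.39 CPM in OVX, from 2885 UMIs against 12, with a log2 change of -6.62 ± 0.66 (SE, edgeR; adjusted p = 0.00545). Krt6b stood at 87.6 and 152 CPM in WT and had no UMI in either OVX library, which makes it at least 43.2-fold lower against 3 UMIs over the group (edgeR adjusted p = 0.00629). Krt16 stood at 432 and 162 CPM in WT and 6.32 and 3.20 CPM in OVX, with a log2 change of -6.13 ± 0.78 (SE, edgeR; adjusted p = 0.00633). The log2 change of Krt6a was -5.88 without OVX library 2, -7.32 without OVX library 1 and -4.78 with Spink5 left out of the suprabasal list. That of Krt16 was -5.23 without WT library 1, -6.73 without WT library 2, -6.85 with Spink5 left out and -5.503 in cells with no suprabasal UMI. In this gate 1.77% of 8791 genes tested were called lower. Krt6a, Krt6b and Krt16 passed the filter on low counts here through their WT counts. Krt17 stood at 211 and 238 CPM in WT and 461 and 300.5 CPM in OVX, a log2 change of 0.73 ± 0.44 (SE, edgeR; adjusted p = 0.454).

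Free RNA and doublets limit what the small shares show. Myeloid-gated cells, which should lack keratins, numbered 10 and 5 in the WT libraries; in WT library 1 they held 1 UMI of Krt6a, 5 of Krt6b, 4 of Krt16 and none of Krt17, and in WT library 2 none of the 4. The Krt6b UMIs amount to 430.0 CPM (95% counting interval 140 to 1003) and were seen in 2 of 10 thinned cells. Basal-gated WT cells showed Krt6b in 2.94% and 4.21% of thinned cells. In WT library 1 basal-gated Krt6b (87.6 CPM, 95% counting interval 75.0 to 102) lay below the myeloid-gated interval. Such intervals treat UMIs as independent and leave out the spread between cells, and the 5 myeloid-gated Krt6b UMIs lay in few cells. These myeloid-gated cells are too few to give a free RNA level common to all cells. Doublets remain in the data, and their part in these counts was not tested. The data therefore do not separate Krt6b in WT basal-gated cells from free RNA. Median depth was 970 UMIs in the myeloid-gated cells of WT library 1 and 1540 UMIs in its basal-gated cells. Krt6a was seen in 27.3% and 25.1% of basal-gated thinned WT cells and in 0 of the 10 and 5 myeloid-gated ones, which allow shares of up to 30.0% and 60.0%, and its level in basal-gated cells (1156 CPM) lay above the interval of 2.18 to 479 CPM in the myeloid-gated cells of the same library. For Krt16 the basal-gated 432 CPM lay within the myeloid-gated interval of 93.7 to 881 CPM. With so few myeloid-gated cells, these intervals do not set either gene apart from free RNA. In WT barcodes that failed the cell filter, Krt6a stood at 1498 and 1088 CPM, not below its basal-gated 1156 and 986 CPM. The part of free RNA in basal-gated Krt6a was not tested.

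**Figure D2:**
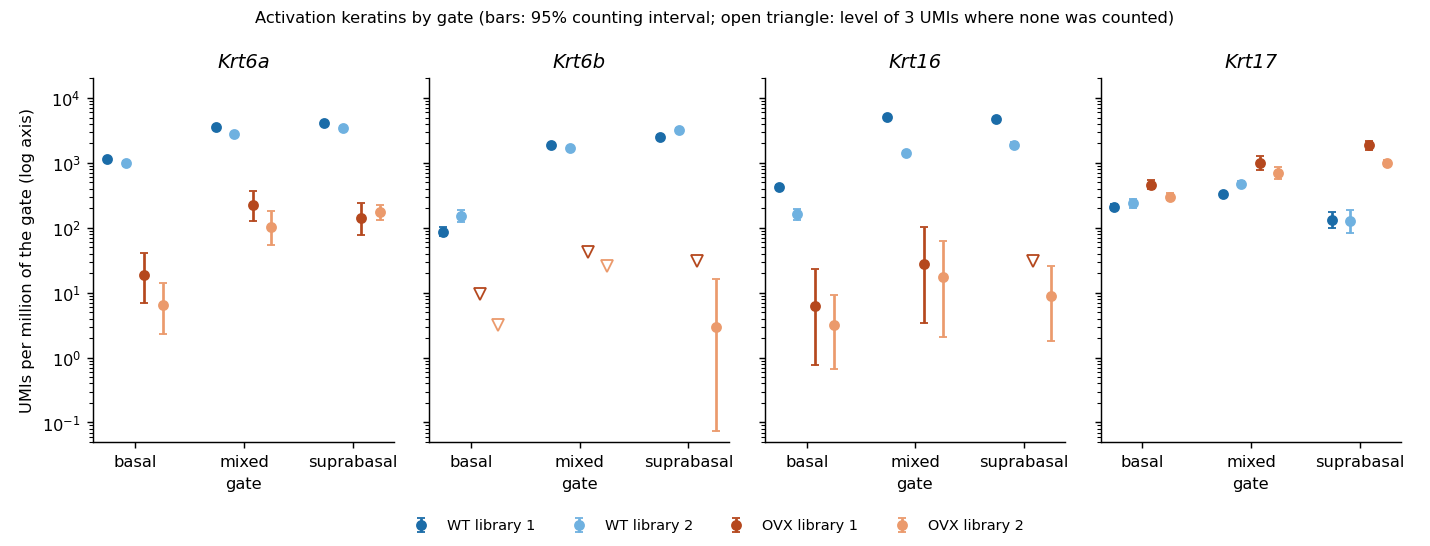
CPM (log axis) of the 4 genes in basal-gated, mixed and suprabasal-gated cells of each library. Points are library sums with 95% Poisson counting intervals, and open triangles mark the level of 3 UMIs where none was counted. In WT, Krt6b rises from 87.6 and 152 in the basal gate to 2507 and 3188 in the suprabasal gate while Krt17 falls to 134 and 127, and in OVX Krt17 is highest in the suprabasal gate, at 1861 and 994.

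In the intact epithelium Krt6a, Krt6b and Krt16 were higher in suprabasal-gated than in basal-gated cells of the same library, and Krt17 was lower. Krt6b rose from 87.6 to 2507 CPM in WT library 1 and from 152 to 3188 CPM in WT library 2, a log2 difference of 4.74 ± 0.11 (SE; edgeR adjusted p = 3.2e-13 with the library as a block). Krt16 rose from 432 to 4679 CPM and from 162 to 1882 CPM, a log2 difference of 3.57 ± 0.09 (edgeR adjusted p = 4.4e-13). Krt6a rose from 1156 to 4084 CPM and from 986 to 3388 CPM, a log2 difference of 1.90 ± 0.07 (edgeR adjusted p = 8.6e-11). Both libraries gave the same order and close sizes for these 3 genes; for Krt6a the log2 ratios of the 2 libraries were 1.82 and 1.78. Krt17 fell from 211 to 134 CPM in WT library 1 and from 238 to 127 CPM in WT library 2, a log2 difference of -0.65 ± 0.18 (edgeR adjusted p = 0.0218). In this comparison 7.26% of 7081 genes were called higher and 8.47% lower. The sizes depended on the gate: with Spink5 left out of the list the log2 differences were 3.68 for Krt6b, 2.87 for Krt16 and -1.57 for Krt17, with Krt4 and Krt13 left out Krt17 gave -1.44, and with another random thinning Krt6b gave 3.97 and Krt17 -1.24. Without the library block none of the 4 passed (edgeR adjusted p = 0.0663 for Krt6b, 0.196 for Krt16, 0.239 for Krt6a and 0.9999 for Krt17), and DESeq2 did not call Krt17 (adjusted p = 0.559).

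With the gates as set, most of the activation keratin RNA of intact mice came from mixed cells. These carried basal and suprabasal markers together and made up 57.9% and 54.4% of the thinned WT cells. The mixed gate held 59.0% and 55.9% of the UMIs of all gated cells but 75.5% and 69.2% of the Krt6a UMIs, 84.5% and 70.6% of the Krt6b UMIs and 86.4% and 75.8% of the Krt16 UMIs. For Krt17 it held 70.5% and 74.3%. The basal gate, with 33.7% and 32.6% of all UMIs, held 14.1% and 14.5% of Krt6a, 2.21% and 3.72% of Krt6b, 4.14% and 4.98% of Krt16 but 26.0% and 21.8% of Krt17. In WT Krt17 stood at 326 and 474 CPM in mixed cells, above its level in both the basal and the suprabasal gate of the same library. Krt6a stood at 3543 and 2756 CPM in mixed cells, Krt6b at 1913 and 1683 CPM, and Krt16 at 5148 and 1438 CPM. Median depth was 1629 and 824 UMIs in mixed cells against 1540 and 780.0 in basal-gated cells of the same libraries. The mixed gate also depended on Spink5, which gave 47.8% and 20.9% of its suprabasal-list UMIs in WT. Without Spink5 in the list it held 1118 and 919 WT cells, against 1738 and 854 in the basal gate. The shares of the 4 genes in those gates were not counted.

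Among suprabasal-gated WT cells, those whose leading differentiation keratin was Krt10 (85 and 104 cells) differed from those led by Krt4 or Krt13, keratins of wet stratified epithelia (85 and 50 cells). Krt6b stood at 4450 CPM in the Krt10-led cells of WT library 1 and 4765 CPM in those of WT library 2, against 1125 and 819 CPM in the Krt4/Krt13-led cells. Krt16 stood at 9069 and 2793 CPM in Krt10-led cells against 1150 and 231 CPM. Krt6a differed less, at 5116 and 4283 CPM against 3406 and 2437 CPM. For these 3 genes the counting intervals of the 2 kinds of cell did not overlap in either library. Krt17 stood at 52.6 and 71.4 CPM in Krt10-led cells, from 9 and 8 UMIs, and at 220.0 and 63.0 CPM in Krt4/Krt13-led cells, from 44 and 3 UMIs, with separate intervals in WT library 1 and overlapping ones in WT library 2. These contrasts were not tested across libraries, 15 and 45 cells with tied keratins were set apart, and 4 cells per library led by Krt1 were too few to describe.

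Within the basal gate of intact mice all 4 genes were lower in cycling cells, defined by at least 3 thinned UMIs of 34 cell-cycle genes, than in cells with none. Krt16 stood at 261 against 744 CPM in WT library 1 and 84.5 against 249 CPM in WT library 2, a log2 difference of -1.51 ± 0.14 (SE; edgeR adjusted p = 5.0e-25 with the library as a block). Krt6b stood at 56.5 against 146 CPM and 76.4 against 239 CPM, a difference of -1.47 ± 0.24 on the log2 scale (edgeR adjusted p = 2.9e-08). Krt6a stood at 951 against 1551 CPM and 679.7 against 1338 CPM, and Krt17 at 169 against 268 CPM and 177 against 342 CPM. Their log2 differences were -0.80 ± 0.09 (edgeR adjusted p = 1.8e-18) and -0.76 ± 0.17 (edgeR adjusted p = 0.000106). The limits given above for Krt6a, Krt6b and Krt16 in basal-gated WT cells apply here too. Basal-gated cells could hold 1 suprabasal UMI, and the cycling and the other cells were not matched on it. The part of free RNA, of cell depth and of suprabasal marker counts in these differences was not tested. In this comparison, added after the data were seen, 3.60% of 5996 genes were called lower in cycling cells, and without the library block edgeR called no gene (243 had an unadjusted p under 0.05; adjusted p = 0.706 to 0.9999 for the 4 members).

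Ordering the epithelial cells by their suprabasal-list UMIs, without gates, also set Krt17 apart from the other 3 genes in intact mice. The fall of Krt17 between the gates was not repeated from the first to the last step of this order. From cells with 0 suprabasal UMIs to those with 1 to 2, 3 to 5, 6 to 9 and 10 or more, Krt6b went through 59.0, 203, 944, 2979 and 4562 CPM in WT library 1 and 87.6, 306, 877, 3109 and 6118 CPM in WT library 2. Krt16 went from 263 to 10052 CPM and from 108 to 4021 CPM, and Krt6a from 863 to 5696 CPM and from 664 to 5299 CPM, each higher at every step in both libraries. Krt17 stood at 162 and 212 CPM at 0 suprabasal UMIs and at 322 and 254 CPM at 10 or more. The counting intervals of these 2 steps were separate in WT library 1 (137 to 190 and 284 to 364 CPM) and overlapped in WT library 2. Its highest WT level was at intermediate counts, 397 CPM at 6 to 9 UMIs in WT library 1 and 509 CPM at 3 to 5 UMIs in WT library 2. Counting the list without Spink5, Krt17 in the last step was 232 and 173 CPM, after 378 and 361 CPM in the step before it. In the first step of that count it was 199 and 219 CPM. Each step held 163 to 976 cells per WT library.

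In the OVX libraries Krt17 was higher at each step of the same order. It went through 389, 776, 1403, 1564 and 2449 CPM in OVX library 1 and 282, 373, 833, 979.8 and 1096 CPM in OVX library 2. With Spink5 left out of the list, 759 of the OVX library 1 cells and 1565 of the OVX library 2 cells had no suprabasal UMI, and Krt17 stood at 719 and 424 CPM in them and at 916 and 679 CPM in cells with 1 to 2. The Krt17 steps in OVX thus lie along a scale made mostly of Spink5. Krt6a in OVX went from 21.0 and 3.22 CPM at 0 suprabasal UMIs to 212 and 98.0 CPM at 3 to 5, and was at 52.1 (1 UMI) and 201 CPM at 10 or more. Krt6b and Krt16 had 0 to 3 UMIs per step in each OVX library, except for 5 UMIs of Krt16 at 0 suprabasal UMIs in OVX library 2.

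**Figure D3:**
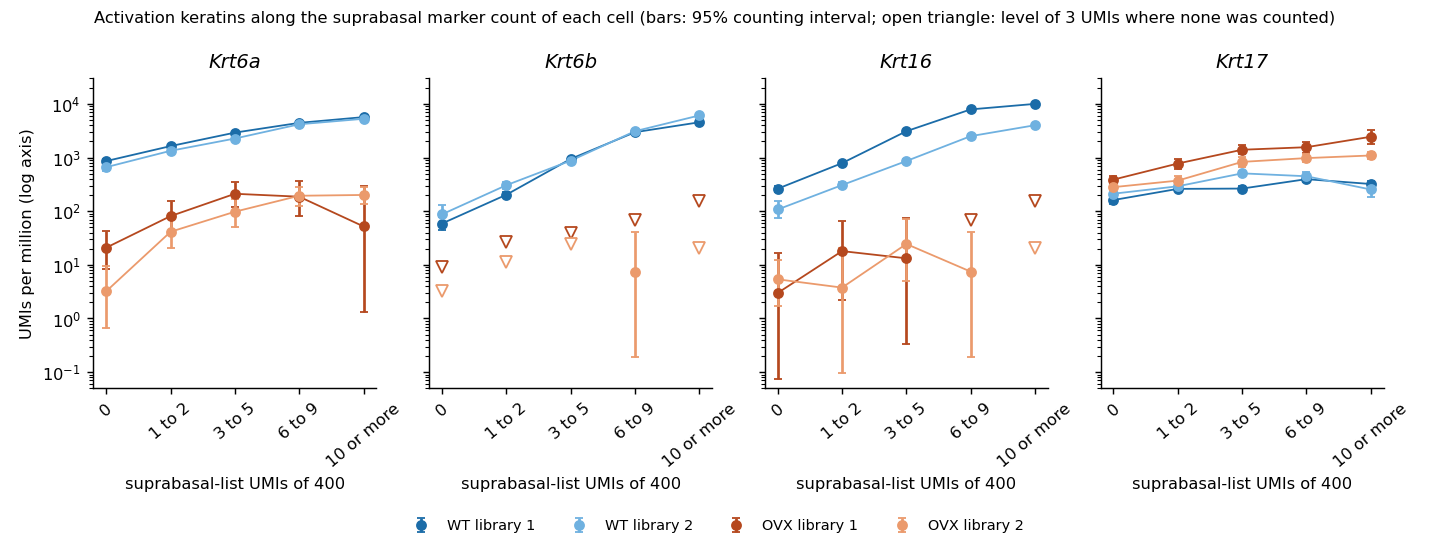
CPM (log axis) of the 4 genes in epithelial cells binned by the number of suprabasal-list UMIs among 400 thinned UMIs. Lines join library values with 95% Poisson counting intervals; open triangles mark the level of 3 UMIs where none was counted. Krt6a, Krt6b and Krt16 are higher at every step in both WT libraries, whereas Krt17 reaches 2449 and 1096 at the right in the OVX libraries and stays between 162 and 509 in WT.

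The same cells tended to carry Krt6b, Krt16 and Krt6a in intact mice. Among thinned cells with a Krt6b UMI, 78.2% in WT library 1 and 58.9% in WT library 2 also had a Krt16 UMI, against 15.9% and 8.62% of cells without Krt6b. Of the cells with Krt6b, 83.8% and 77.1% had Krt6a, against 38.0% and 35.9% of the others. Of the cells with Krt16, 74.8% and 76.2% had Krt6a, against 34.7% and 35.8%. The reverse share was smaller, as 27.9% and 29.7% of cells with Krt6a had Krt6b, so many cells had Krt6a with no Krt6b seen at this depth.

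By rank correlation Krt17 overlapped less with the other 3. Among cells with Krt17, 58.8% and 56.5% had Krt6a, against 43.8% and 41.1% of those without it, and 45.5% and 25.7% had Krt16, against 23.7% and 15.9%. Krt6b was seen in 34.6% and 22.5% of cells with Krt17, against 13.4% and 15.7% of the others. Krt17 itself was seen in 7.08% and 9.83% of thinned WT cells. The part of this low detection in the weaker correlations was not tested. The rank correlation of thinned counts across cells (Spearman's rho, over 2979 and 1944 cells of 1 library each, all at 400 UMIs) was 0.60 and 0.54 for Krt6b with Krt16, 0.44 and 0.41 for Krt6a with Krt6b, 0.47 and 0.40 for Krt6a with Krt16, and 0.06 to 0.16 for Krt17 with the others. Some of the Krt16 and Krt17 detections can share reads, since the 2 genes have the common stretch shown above.

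**Figure D4:**
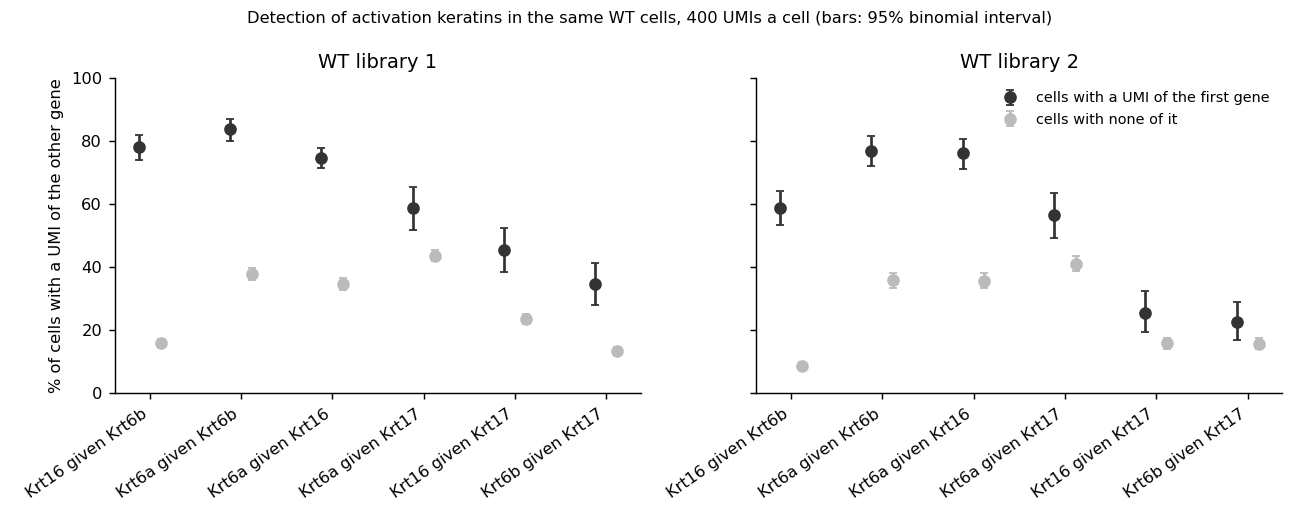
Percentage of WT cells, thinned to 400 UMIs, with a UMI of the other gene (vertical axis, with 95% exact binomial intervals) among cells with a UMI of the first gene (dark) and cells with none (light), for 6 pairs in each WT library. Krt16 is seen in 78.2% and 58.9% of cells with Krt6b, and the intervals for Krt17 pairs lie closer together, overlapping for Krt6b given Krt17 in WT library 2.

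After ovariectomy Krt17 and the remaining Krt6a were higher in the Spink5-led cells than in basal-gated cells. Mixed cells of the OVX libraries had 1008 and 703.6 CPM of Krt17 and 224 and 104 CPM of Krt6a (16 and 12 UMIs), so that in OVX library 1 Krt6a was higher in mixed than in Spink5-led cells. Krt17 stood at 1861 and 994 CPM there, against 461 and 300.5 CPM in basal-gated OVX cells, a log2 difference of 1.83 ± 0.12 (SE; edgeR adjusted p = 5.8e-47 with the library as a block). Krt6a stood at 144 and 173 CPM against 19.0 and 6.39 CPM, a log2 difference of 4.05 ± 0.38 (edgeR adjusted p = 1.9e-24). In this comparison, added after the data were seen, 6.74% of 5682 genes were called higher in the Spink5-led cells. Without the block both genes were still called, by far less (edgeR adjusted p = 0.0406 for Krt17 and 0.00778 for Krt6a). Krt6b and Krt16 did not pass the filter on low counts in this comparison, with 1 and 8 UMIs over both gates and libraries. The Spink5-led cells held 16.4% and 21.1% of the UMIs of gated cells and 40.7% and 45.0% of the Krt17 UMIs. Krt17 was seen in 38.8% and 27.7% of them after thinning, against 16.3% and 10.4% of basal-gated OVX cells.

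Set against the WT suprabasal gate, which held other cells, the Spink5-led OVX cells had less Krt6a, Krt6b and Krt16 and more Krt17. Krt6a stood at 4084 and 3388 CPM in WT and 144 and 173 CPM in OVX, a log2 change of -4.59 ± 0.54 (SE, edgeR; adjusted p = 0.00175). Krt6b had 1 UMI in OVX, a pooled ratio of 1199 (95% counting interval 215 to 47368; edgeR adjusted p = 0.000403), and Krt16 had 3 UMIs, a pooled ratio of 548 (187 to 2659; edgeR adjusted p = 0.000932). Krt17 stood at 134 and 127 CPM in WT and 1861 and 994 CPM in OVX, a log2 change of 3.38 ± 0.54 (SE, edgeR; adjusted p = 0.00661). In this gate 1.84% of 4835 genes were called lower and 2.01% higher. Krt6b and Krt16 passed the filter on low counts here through their WT counts. The WT values of Krt17 rest on 55 and 26 UMIs.

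The change of Krt17 with ovariectomy differed between the 2 gates. Its log2 fold change was larger in the suprabasal gate than in the basal gate by 2.51 ± 0.22 (SE; interaction in edgeR with the library as a block, adjusted p = 5.1e-16), and it kept that call with each library left out and with another random thinning, which gave 3.12. For Krt6a the fold change was less negative in the suprabasal gate by 2.198 ± 0.35 (edgeR adjusted p = 4.8e-06), a call that was lost without OVX library 2 (difference 0.96, edgeR adjusted p = 0.701; 2.85 without OVX library 1). Differences above 0 were called for 1.26% of 7214 genes in this comparison, which was added after the data were seen. For Krt16 and Krt6b no difference was called (edgeR adjusted p = 0.163 and 0.921). Since the gate holds Krt10-rich cells in WT and Spink5-led cells in OVX, the change and the kind of cell cannot be told apart here.

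Luminal-gated cells, with keratins such as Krt8 and Krt18, were found in the OVX libraries (41 and 70 cells) and not in the WT libraries. Krt17 stood at 261 and 130 CPM in them, from 8 UMIs in each library, below its level in the basal-gated cells of the same library. The counting intervals of the 2 gates overlapped in OVX library 1 (113 to 515 against 389 to 542 CPM). They did not in OVX library 2 (56.3 to 257 against 266 to 338 CPM). Krt6a stood at 98.0 and 32.6 CPM, from 3 and 2 UMIs. No UMI of Krt6b or Krt16 was counted in them, which allows up to 98.0 and 48.9 CPM. Myeloid-gated OVX cells (8 and 20) held 9 Krt17 UMIs in 1 cell of OVX library 1 and none in OVX library 2. In barcodes that failed the cell filter, Krt6a stood at 1498 and 1088 CPM in WT (22 and 5 UMIs) and 31.2 and 20.8 CPM in OVX (6 and 1 UMIs). Krt6b stood at 817 and 1306 CPM (12 and 6 UMIs) in those of WT, and Krt16 at 2587 and 1306 CPM (38 and 6 UMIs). Both genes lay above their levels in basal-gated cells of the same WT library. Neither had a UMI in the OVX barcodes that failed the filter. Krt17 had 84 and 12 UMIs in those of OVX (437 and 249.6 CPM) and 1 and 0 UMIs in those of WT, whose 14690 and 4594 UMIs are too few to compare it.

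The genes most like each member were ranked by Pearson's r of log2(CPM + 10) across 16 sums of a library and a gate, over 10988 genes; the sums share libraries and their composition, so r is a description. For Krt6b the 5 nearest were Dsg1b (r = 0.984), Dsg1a (0.982), Mt4 (0.978), Csta1 (0.976) and Stfa2 (0.975), of which Dsg1a and Dsg1b encode desmosomal cadherins and are in the suprabasal list. For Krt16 they were Dsg1b (0.980), Stfa2 (0.978), Csta1 (0.974), Krt6b (0.970) and Stfa3 (0.959). For Krt6a they were Capns2 (0.975), Fam25c (0.963), S100a14 (0.953), Pycard (0.951) and Gm94 (0.951). Krt6a correlated with Krt16 at 0.922 and with Krt6b at 0.914. Krt17 stood apart, at r = -0.26 with Krt6a, -0.47 with Krt6b and -0.43 with Krt16. Its nearest genes were Gm37636 (0.904), Gm11849 (0.885), Zfp992 (0.854), Hey1 (0.822) and Gm9372 (0.818).

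Genes known to act on or with these keratins were read from the whole-library comparison. Of 10 EGF receptor ligands and receptors, which drive Krt6 and Krt16 in wounded skin, 5 were tested and none was called by edgeR or DESeq2 (1 had an unadjusted edgeR p under 0.05). Egfr stood at 53.7 and 47.7 CPM in WT and 73.9 and 128 CPM in OVX (edgeR adjusted p = 0.311), and the ligand Hbegf at 32.1 and 18.7 against 22.5 and 30.5 CPM. Of the interleukin-1 and interleukin-36 genes, another known trigger, 7 of 11 were in the tables. Of these, 5 were tested and 1 fell, where 2.52% of all genes tested were called lower. That gene was Il1r2, the decoy receptor of interleukin-1, at 985 and 982 CPM in WT and 11.3 and 11.6 CPM in OVX (log2 fold change -6.55 ± 0.51, SE; edgeR adjusted p = 0.00263). Of 20 transcription factors and regulators tied to these keratins, 16 were tested and 1 fell, beside 2.52% of all genes tested. It was the AP-1 subunit Fosl2, at 132 and 99.0 CPM in WT and 31.3 and 27.5 CPM in OVX (edgeR adjusted p = 0.0284). The regulators had a median log2 fold change of 0.39 over those tested, beside -0.03 over all genes tested.

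Of 25 wound-edge and alarmin genes, 16 were in the tables, 6 were tested and 5 fell, with a median log2 fold change of -4.63, where 2.52% of all genes tested were called lower. Of those named here, Gjb6 and Stfa3 passed the filter on low counts through their WT counts. Gjb2, a gap junction protein, stood at 148 and 135 CPM in WT and 10.0 and 9.16 CPM in OVX (edgeR adjusted p = 0.0045). Gjb6, another connexin, stood at 12.3 and 19.7 CPM against 0 and 0.611 CPM (1 UMI in OVX; pooled ratio 34.5, 95% counting interval 6.07 to 1376; edgeR adjusted p = 0.0186). Stfa3, a cysteine protease inhibitor of a family of near-identical copies whose counts are uncertain, stood at 228 and 166 CPM against 5.01 and 6.11 CPM (edgeR adjusted p = 0.00368). Of 15 filament partners and linkers, 13 were tested and 4 fell, with a median of -1.79 (2.52% of all genes tested fell). Krt14, the basal type I keratin, fell by 3.08 ± 0.47 on the log2 scale (SE; edgeR adjusted p = 0.0129). The desmosomal Dsc2 stood at 332 and 331 CPM in WT and 43.8 and 51.3 CPM in OVX (edgeR adjusted p = 0.0103), and the plaque protein Pkp1 at 421 and 391 against 110.1 and 92.9 CPM (edgeR adjusted p = 0.0251). Of the 40 other numbered keratins, Krt14 among them, 14 were tested, 3 rose and 6 fell, beside 2.58% and 2.52% of all genes tested.

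Markers of other cells moved with the groups. The summed level of 9 myeloid genes was 129 and 143 CPM in WT against 905 and 497 CPM in OVX, with 5 of 9 called higher (2.58% of all genes tested), and that of 6 fibroblast genes was 1.37 and 26.9 CPM against 210.3 and 193 CPM, with 1 of 5 tested called higher. No gene of either list was at 0 in all 4 libraries. Of 4 T or NK cell genes, summing to 66.5 and 80.8 CPM in WT and 20.03 and 23.8 CPM in OVX, 1 was tested and fell. Of 5 endothelial genes, summing to 9.78 and 10.9 against 45.1 and 35.4 CPM, 1 was tested and rose. Over all genes tested, 2.52% were called lower and 2.58% higher. Smooth muscle, erythroid and neutrophil lists had no gene past the filter on low counts. The part of these cells in the whole-library values of Krt6a, Krt6b, Krt16 and Krt17 was not tested. The OVX libraries also had more mitochondrial and Malat1 UMIs, whose part in these results was not tested; with cells limited to at most 10% mitochondrial UMIs the calls of all 4 genes were unchanged.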

How the data were processed

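The authors deposited 1 matrix of raw UMI counts per gene and barcode for each library, with no normalization, per the file headers and values. The submitters' processing notes name mm10 and Seurat 2; the sources used here do not give the aligner, annotation or barcode rule. Kept cells had 200 or more genes and no more than 20% of UMIs from mitochondria; no doublet caller was run, so doublets remain. Counts were summed per library or per library and gate, and tested with edgeR 4.0.16 (TMM, filterByExpr, quasi-likelihood F-test, Benjamini-Hochberg over all genes tested, threshold 0.05, R 4.3.3). Comparisons between gates of 1 library had the library as a block. Gates used counts thinned to 400 UMIs and the original counts were then summed; tests needed 20 cells per gate. DESeq2 1.42.0 was an alternative. Intervals are exact 95% Poisson or binomial (Clopper-Pearson) ones and, like the limit of 3 counts for a count of 0, cover counting error only. The fits were tested on data simulated from these libraries with the same fixed spread for every gene. That setting does not match genes such as Krt16, whose WT libraries differed widely. Symbols matched GENCODE vM21 names for 94.1%. Members, lists and gates were chosen with earlier results of these data known. Named list genes are the 3 with the smallest adjusted p per direction among those called, or the 2 with the highest mean CPM where none was; the 5 nearest genes by correlation are named for each member. Other keratins are named only where they are in a list or gate.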

Additional observations from a re-analysis of the deposited data

Results flagged for a closer look

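The effect of ovariectomy differed between the basal and the suprabasal gate for 2 of the 4 genes, by a test of the difference itself (interaction in edgeR with the library as a block). For Krt17 the log2 fold change was larger in the suprabasal gate by 2.51 (adjusted p = 5.1e-16). For Krt6a it was less negative there by 2.198 (adjusted p = 4.8e-06), a call that was lost without OVX library 2 (difference 0.96). Differences above 0 were called for 1.26% of 7214 genes tested. The suprabasal gate of the OVX libraries is made of Spink5-led cells with little Krt10, so the kind of cell and the treatment cannot be told apart.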

How the results depend on the processing

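In whole libraries and the basal gate, the 4 genes kept their direction and their side of the threshold in all 96 repeats. Counts of genes called varied. With each library left out in turn they ran from 308 to 1884 in whole libraries (587 in the full fit; 308 without OVX library 2, 384 without OVX library 1, 1621 and 1884 without WT library 1 or 2), from 77 to 1125 in the basal gate (238), from 72 to 387 in the suprabasal gate (186) and from 45 to 187 for the difference between gates (189; 45 without WT library 1 and 80 without OVX library 2). With no filter on low counts they were 1356, 585 and 325 for whole libraries, basal and suprabasal gate. Replicate numbers of WT and OVX do not pair the libraries by the labels; same-numbered deviations correlated at -0.571. The replicate block gave 517, 241 and 154 calls and changed no call on a member, and the crossed replicate block, added after seeing the data, gave 3489, 1988 and 662. Between gates in WT, 1114 genes were called with the library as block, 7 with no replicate block and 313 by DESeq2; with no replicate block the log2 differences were 1.90 for Krt6a (adjusted p = 0.239), 4.68 for Krt6b (0.0663), 3.56 for Krt16 (0.196) and -0.68 for Krt17 (0.9999), and DESeq2 gave Krt17 -0.64 (0.559). Between gates in OVX 719 fell to 104 with no replicate block. For cycling cells 663 fell to 0 in edgeR (243 at an unadjusted p under 0.05), with -0.83 for Krt6a, -1.55 for Krt6b, -1.503 for Krt16 and -0.83 for Krt17 and adjusted p from 0.706 to 0.9999. With each library left out, the difference between gates for Krt6a ran from 0.96 (without OVX library 2, adjusted p = 0.701) to 2.85. Leaving out a library leaves no residual degrees of freedom in the comparisons within WT or OVX. Depth limits the OVX values of Krt6b and Krt16, which rest on 1 and 15 UMIs.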
